A study of Canis lupus familiaris with 4 samples.

Results

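miR-21 was the most abundant microRNA (miRNA) in small RNA libraries of extracellular vesicles (EVs) from a pair of canine mammary carcinoma cell lines. It was selected on its measured level in these libraries, which is therefore given as a description, and is 1 row (cfa-mir-21) of the 673 rows of the miRNA table, of which 508 were known dog miRNAs and 165 were predicted. CHMp is a line from a primary mammary gland adenocarcinoma and CHMm a line from a metastasis in the same dog. The labels give neither line a transgene or a drug. Both were grown with fetal bovine serum and then moved to medium without serum or antibiotics, and EVs were taken from that medium by filtration and ultracentrifugation. EVs of CHMp are called pTDEs and EVs of CHMm are called mTDEs, with 2 libraries each. Each side of the comparison is thus 1 line, and line and tumour site cannot be told apart. The study calls the libraries of a line biological replicates, but the labels do not say that they came from separate cultures, so p-values may measure no more than the spread between these libraries.

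miRNAs are short RNAs that guide Argonaute proteins to messenger RNAs and lower their output, and the bases near the 5′ end, the seed, do most of the target recognition. miR-21 is a classic oncogenic miRNA that is high in many carcinomas, breast cancer included. It represses the tumour suppressor gene PDCD4, and it is often among the leading miRNAs of cell lines and their vesicles. In the dog RefSeq annotation, MIR21 lies on chromosome 9 with PTRH2 as the protein-coding gene before it, TUBD1 after it, and no protein-coding gene over it.

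The sequences of miR-21 and of the miRNAs it is set against are shown so that the shared and unshared seeds can be seen. They were read 5′ to 3′ as the reverse complement of candidates that the study's miRDeep2 run listed on the opposite strand, so their ends are those of the candidate and may differ from the mature miRNA by a base or more. Capitals mark the seed, bases 2 to 8 in the first 3 and bases 6 to 12 of the candidate for miR-590, which begins upstream of the mature end.
miR-21: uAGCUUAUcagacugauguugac
let-7a: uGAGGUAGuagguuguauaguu
miR-222: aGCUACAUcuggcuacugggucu
miR-590: aaaugAGCUUAUucauaaaag
The miR-21 candidate spanned chr9:34340550-34340606 in CanFam3.1 on the minus strand, and its 57-base reverse complement is given to show both arms of the hairpin, with the seed of the leading arm in capitals.
miR-21 hairpin: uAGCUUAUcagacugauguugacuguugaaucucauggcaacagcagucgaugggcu
The other arm of that hairpin read caacagcagucgaugggcu. The table has 1 row for miR-21 and does not say which arm its value counts. The seed AGCUUAU occurred in 0 of the 165 predicted miRNAs, at bases 2 to 8 or anywhere else. The known rows come without sequences and were not searched, and miR-590 is named from knowledge of its seed.

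Values are given in CPM (reads per 1000000 reads of the library), recovered from the deposited score, and a library's CPM add up to 1000000. The pTDE libraries held 6295815 and 5053267 recovered reads and the mTDE libraries 3457463 and 2330389, so a row listed at 0 lies under 3 reads, or 0.477 and 0.594 CPM in pTDEs and 0.868 and 1.29 CPM in mTDEs. Among markers of epithelial cells, the miR-200 family with miR-205 and miR-203, the 7 rows summed to 73.9 and 104 CPM in pTDEs and to 23718 and 26413 CPM in mTDEs. miR-141, miR-200a, miR-200b and miR-429 were listed at 0 in both pTDE libraries and above it in both mTDE libraries. The 6 rows of mesenchymal miRNAs summed to 1552 and 1498 CPM in pTDEs and to 152 and 1127 CPM in mTDEs. With the identical miR-199 rows counted once these sums were 589 and 926 CPM in pTDEs and 81.6 and 762 CPM in mTDEs, and the groups overlapped. The rows of blood and liver miRNAs summed to 293 and 603 CPM in pTDEs and to 553 and 2071 CPM in mTDEs. That sum leaves out the erythroid miR-486, whose 3p arm has a row of its own at 110 and 349 CPM in pTDEs and at 486 and 1397 CPM in mTDEs. The erythroid miR-451 was at 123 and 465 CPM in pTDEs and at 138 and 1423 CPM in mTDEs, and miR-144 was listed at 0 in all 4 libraries. miR-122 was at 158 and 98.5 CPM in pTDEs and at 364 and 570 CPM in mTDEs. miR-223 was at 12.4 and 39.6 CPM in pTDEs and at 50.6 and 78.1 CPM in mTDEs. In limma with Benjamini-Hochberg adjustment 0 of the 6 mesenchymal and 0 of the 3 tested blood and liver rows were called, and 6 of the 7 epithelial rows were called lower in pTDEs, against 1.84% of all 326 rows tested. The part of other cells or of cell state in the level of miR-21 was not tested.

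miR-21 ranked first in all 4 libraries. Its level was 378279 CPM in pTDE replicate 1, 265445 CPM in pTDE replicate 2, 280382 CPM in mTDE replicate 1 and 224785 CPM in mTDE replicate 2. The mTDE replicate 1 value lay between those of the pTDE replicates, so the groups overlapped. As a share of the library these levels were 37.8%, 26.5%, 28.0% and 22.5%, and the 95% Wilson intervals, which cover counting error only, spanned 37.8 to 37.9%, 26.5 to 26.6%, 28.0 to 28.1% and 22.4 to 22.5%. The mean share was 32.2% ± 7.98 (SD, n = 2) in pTDEs and 25.3% ± 3.93 (SD, n = 2) in mTDEs. The spread between replicates was thus far wider than these intervals, which take each recovered read as independent.

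In reads, miR-21 took 2381577 and 1341364 of the pTDE libraries and 969409 and 523836 of the mTDE libraries. Set against everything else in the library, its reads were 0.608, 0.361, 0.390 and 0.290 times the sum of all other rows, in the same order. Leaving out predicted miRNAs hardly moved its share, to 38.1%, 26.6%, 28.8% and 22.9%. Several miRNAs have more than 1 row with near-equal values because copies of a gene can share reads. With such copies counted once the share rose to 46.2%, 33.9%, 34.4% and 27.3%.

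The comparison of pTDEs with mTDEs asked whether this leading miRNA differed between primary and metastatic EVs. The mean level of pTDEs was 321862 ± 79786 CPM and that of mTDEs 252584 ± 39313 CPM (SD, n = 2). The mean was 1.27-fold higher in pTDEs and the difference of the mean log2 levels was 0.34, while the pTDE replicates differed from each other by 0.51 (1.43-fold) and the mTDE replicates by 0.32 (1.25-fold). With limma on log2(CPM + 1), the log2 fold change was 0.34 with a standard error of 0.37 and a Benjamini-Hochberg adjusted p of 0.65. The difference between the lines was therefore within the spread of the pTDE replicates. Without pTDE replicate 1 the log2 fold change was 0.08, without pTDE replicate 2 it was 0.59, and it was 0.50 and 0.18 without mTDE replicate 1 and mTDE replicate 2. With 2 libraries against 2, an exact permutation test of one miRNA cannot give a two-sided p below 0.333. EV libraries measure relative abundance, so more miR-21 and less of the other small RNAs cannot be told apart.

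**Figure D1:**
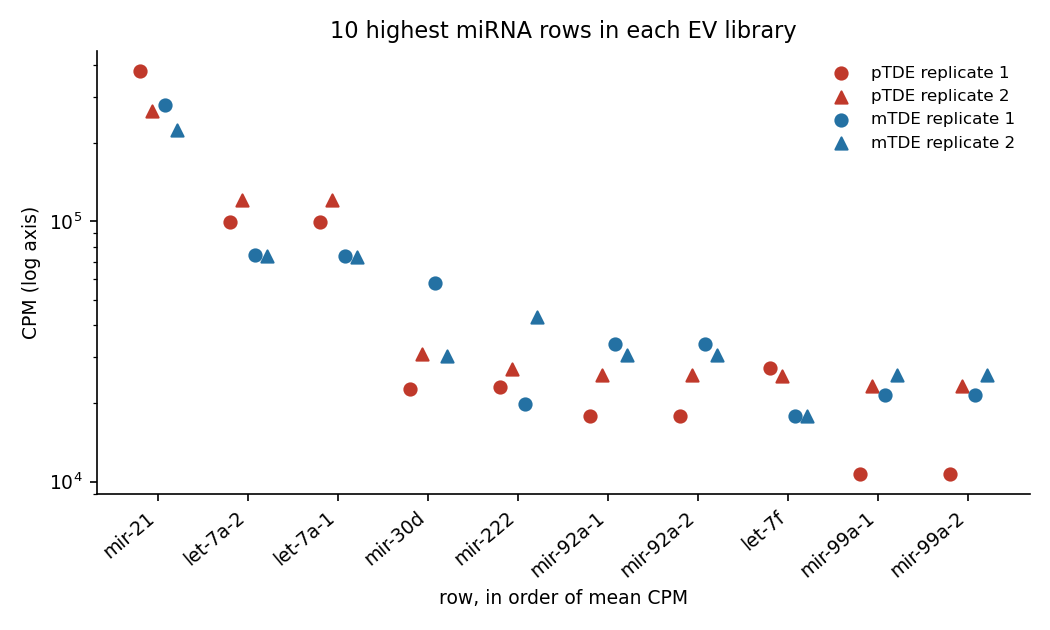
CPM on a log axis for the 10 rows with the highest mean, in order, with 1 point per library (red pTDEs, blue mTDEs, circles replicate 1, triangles replicate 2). miR-21 sits between 224785 and 378279 CPM and above every other row in each library, while the order of the rows after let-7a changes from library to library.

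The row after miR-21 was let-7a-2 in each library, a copy of let-7a, which belongs to a tumour suppressor family that represses RAS and HMGA2. let-7a-2 was at 99812 and 121015 CPM in pTDEs and at 74088 and 73290 CPM in mTDEs, and the second copy, let-7a-1, followed with nearly the same values. miR-21 was 3.79-fold and 2.19-fold above let-7a-2 in pTDEs and 3.78-fold and 3.07-fold above it in mTDEs. The lead was 2.99 ± 1.13-fold in pTDEs and 3.43 ± 0.51-fold in mTDEs (SD, n = 2), and these ranges overlapped. The smallest lead fell in the pTDE library with the highest let-7a, not in the library with the lowest miR-21. For let-7a-2 itself the groups did not overlap, but its log2 fold change of 0.58 had an adjusted p of 0.35 (limma, Benjamini-Hochberg).

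Beyond let-7a, the first row differed by library. It was let-7f at 27426 CPM in pTDE replicate 1, miR-30d at 31009 CPM in pTDE replicate 2 and 58179 CPM in mTDE replicate 1, and miR-222 at 42778 CPM in mTDE replicate 2. The lead of miR-21 over that row was 13.8-fold and 8.56-fold in pTDEs and 4.82-fold and 5.25-fold in mTDEs. Here the pTDE values were both above the mTDE values. miR-222 represses the cell cycle inhibitor p27 and is a further oncogenic miRNA, and miR-30d belongs to the widely expressed miR-30 family.

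Among the 10 highest rows, miR-30d, miR-222 and the pair of miR-99a copies overlapped between the groups, as miR-21 did. The let-7a copies and let-7f were higher in both pTDE libraries, and the pair of miR-92a copies, from the miR-17-92 cluster family of oncogenic miRNAs, were lower in both. Adjusted p-values of these 9 other rows ranged from 0.34 to 0.81 (limma, Benjamini-Hochberg), and none was called, against 1.84% of all rows tested. With 2 libraries against 2, groups that do not differ still fail to overlap with a probability of 0.333. The share of all rows without overlap was not counted. The 9 rows named let-7 summed to 254811 and 298650 CPM in pTDEs and 203868 and 183869 CPM in mTDEs. miR-21 was 1.48, 0.889, 1.38 and 1.22 times that sum, so in pTDE replicate 2 these rows as listed exceeded it. With copies counted once the ratios were 2.44, 1.49, 2.16 and 2.03, and miR-21 was above these let-7 rows in every library.

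The number of other rows that had to be added up, from the highest down, to equal miR-21 was 13 in pTDE replicate 1, 3 in pTDE replicate 2, 6 in mTDE replicate 1 and 5 in mTDE replicate 2. With copies once it was 31, 7, 9 and 6. In pTDEs 3 and 3 rows held 50% of the CPM, and in mTDEs 5 and 7 rows did. Without miR-21 it took 8 and 7 rows in pTDEs and 9 and 11 in mTDEs. The effective number of rows, the inverse of the summed squared shares, was 5.96 and 9.34 in pTDEs and 9.88 and 13.9 in mTDEs. It rose to 15.7 and 14.8 in pTDEs and to 23.0 and 27.9 in mTDEs once miR-21 was left out. Both with and without miR-21 the pTDE libraries were thus the more concentrated ones, and the pTDE replicates lay closer together when it was left out. A median row above 0 held 37.6 and 29.9 CPM in pTDEs and 44.0 and 73.8 CPM in mTDEs.

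**Figure D2:**
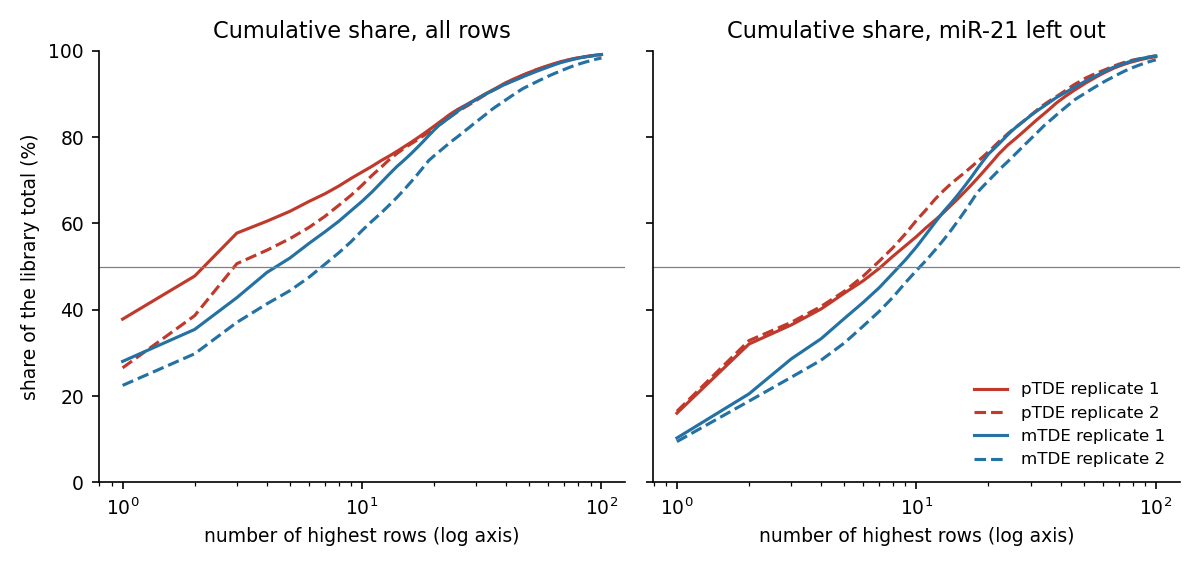
Share of the library total in percent (vertical axis) held by the highest rows, counted on a log axis, with all rows (left) and with miR-21 left out of the total (right), 1 line per library. Left, the lines start at 22.5 to 37.8% and cross 50% (grey line) at 3 to 7 rows; right, they cross it at 7 to 11 rows and the pTDE lines lie close together.

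The row of miR-590, a miRNA whose 5′ arm carries the seed of miR-21, was far lower. The table does not say which arm this row counts, and the arm printed here with the seed was the minor arm of its candidate, so the values belong to the row and not to that arm. It was at 85.9 and 20.4 CPM in pTDEs (541 and 103 reads) and at 41.4 and 43.3 CPM in mTDEs (143 and 101 reads). miR-21 was 4405-fold, 13014-fold, 6776-fold and 5188-fold higher in the 4 libraries. The groups overlapped for miR-590, and its log2 fold change was -0.01 with an SE of 1.02 and an adjusted p of 1.0 by limma with Benjamini-Hochberg.

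The miRNAs with the pattern most like miR-21 were found among 136 rows of at least 100 CPM on average and above 0 in all libraries, by the root mean square difference of log2(CPM + 1) centred on each row's mean. These are descriptions over 4 libraries that share one total with miR-21. miR-148a, which targets the DNA methyltransferase DNMT1, was nearest at 0.15, against a median of 0.71 over the rows compared. It was at 1914 and 1612 CPM in pTDEs and 1600 and 1504 CPM in mTDEs. let-7f followed at 0.22 with 27426 and 25579 CPM in pTDEs and 17899 and 17859 CPM in mTDEs. The 3 identical rows of miR-9, which targets E-cadherin, stood at 0.23, with 1604 and 1183 CPM in pTDEs and 852 and 749 CPM in mTDEs. Each of these was highest in pTDE replicate 1, as miR-21 was, and lowest in mTDE replicate 2. This follows largely from choosing the rows by that pattern, and for let-7f the mTDE values were nearly equal.

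Since a library's CPM add up to a fixed total, the share of miR-21 sets the scale of every other row. Leaving it out raised all other rows 1.61-fold and 1.36-fold in the pTDE libraries and 1.39-fold and 1.29-fold in the mTDE libraries, or by 0.69, 0.45, 0.47 and 0.37 on the log2 scale. This rescaling is arithmetic and not a measurement. Its mean was 0.57 ± 0.17 in pTDEs and 0.42 ± 0.08 in mTDEs (SD, n = 2), a difference of 0.14 that is less than the SD of the pTDE factors.

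The comparison of pTDEs with mTDEs was then repeated for the 325 other rows that were above 0 in both libraries of at least 1 line. Their median log2 fold change was -0.03 with miR-21 in the total and 0.13 without it, and the shift of a row had a median of 0.14 with quartiles of 0.14 and 0.16. With miR-21 in the total 159 rows were higher in pTDEs and 166 lower, and without it 172 were higher and 153 lower. The 13 rows that changed sign all went from lower to higher. The median moved more when an mTDE library was left out. It was -0.59 without mTDE replicate 1 and 0.47 without mTDE replicate 2 with miR-21 in the total, and -0.40 and 0.58 with miR-21 left out.

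The shift was not the same for all rows, because 1 CPM was added before the log. For the 172 rows of at least 10 CPM in every library it ran from 0.12 to 0.16. For the 37 rows listed at 0 in both mTDE libraries it ran from 0.17 to 0.55, and for the 7 rows listed at 0 in both pTDE libraries from -0.42 to -0.38. Rows at 0 stay at 0 when miR-21 is left out, while the other side of the comparison is raised, so these rows moved apart in both directions.

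**Figure D3:**
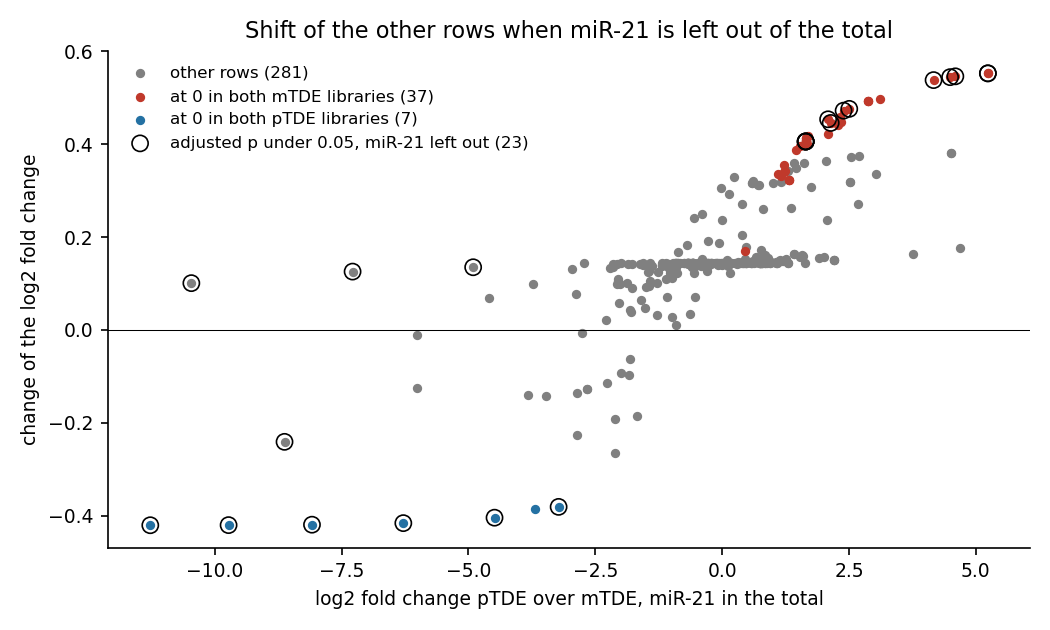
Change of the log2 fold change (vertical axis) when miR-21 is left out of the total, against the log2 fold change of pTDEs over mTDEs with miR-21 in the total, for the 325 other rows. Most rows lie near 0.14; rows at 0 in both mTDE libraries (red, 37) reach 0.55, rows at 0 in both pTDE libraries (blue, 7) reach -0.42, and rings mark the 23 rows with an adjusted p under 0.05 once miR-21 is left out.

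Calls at a Benjamini-Hochberg adjusted p under 0.05 in limma changed with the total. With miR-21 in it, 0 rows were higher in pTDEs (0.0% of those tested) and 6 were lower (1.84%). At an unadjusted p under 0.05 these were 33 rows (10.1%) and 31 rows (9.51%), or 19.6% in either direction. With miR-21 left out, 13 rows were higher (4.0%) and 10 were lower (3.08%), and at an unadjusted p under 0.05 there were 40 (12.3%) and 27 (8.31%), or 20.6% in either direction. All 6 rows called with miR-21 in the total were also called without it. They were miR-429, miR-200c, miR-200b, miR-200a, miR-141 and miR-205, miRNAs that keep epithelial cells epithelial by repressing ZEB1 and ZEB2. Of these, miR-429, miR-200b, miR-200a and miR-141 were at 0 in both pTDE libraries and passed the filter only through mTDEs. miR-200c was at 15.1 and 6.33 CPM in pTDEs and at 14606 and 16067 CPM in mTDEs. Its log2 fold change was -10.46 with miR-21 in the total and -10.36 without it. In the mTDE libraries, then, miR-21 was 11.8 and 8.51 times the sum of the 7 epithelial rows, and in the pTDE libraries 5120 and 2550 times.

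The 13 rows gained on the higher side were all listed at 0 in both mTDE libraries. They stand for 9 distinct miRNAs, namely miR-1 (2 rows), miR-889, miR-455, miR-328, miR-224, miR-8908a-3p (4 identical rows) and the predicted novel_141, novel_75 and novel_63. The muscle miRNA miR-1 was the most abundant of them at 61.6 and 21.8 CPM in pTDEs, or at least 38.7-fold above the mean 3-read limit of the mTDE libraries. Its adjusted p was 0.055 with miR-21 in the total and 0.044 without it (limma, Benjamini-Hochberg). The least abundant, miR-8908a-3p, was at 1.91 and 2.37 CPM, at least 1.99-fold above that limit. Over the 13 rows the adjusted p was 0.054 to 0.10 with miR-21 in the total and 0.038 to 0.049 without it. These rows passed the filter only through pTDEs, which fixed their direction, and they have no spread in mTDEs. Their p-values and calls are therefore no support for a difference. With miR-21 left out, 0 rows were called higher over all rows above 0 in any library or over rows that averaged 10 CPM or more. The mTDE libraries were also the shallower ones, and the part of depth in these zeros was not tested.

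The 4 rows gained on the lower side were miR-95, miR-147, miR-203 and the predicted novel_136, with adjusted p-values of 0.054 to 0.055 before (limma, Benjamini-Hochberg). miR-147 and the predicted row were at 0 in both pTDE libraries and likewise passed the filter only through mTDEs. miR-203, an epithelial differentiation miRNA, was at 38.5 and 66.9 CPM in pTDEs and at 950 and 2535 CPM in mTDEs. miR-95 was at 0 and 3.56 CPM in pTDEs and at 476 and 1491 CPM in mTDEs. Of the 23 rows called without miR-21, 3 were above 0 in all 4 libraries, and 2 of the 6 called with it were.

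These counts moved with the constant added before the log, with the libraries used and with a replicate block. With the replicate number as a block, 0 rows were called higher and 1 lower without miR-21, against 0 and 7 with miR-21 in the total. Without either of the pTDE libraries 37 rows were called higher and 4 lower whether or not miR-21 was in the total, and the 37 were the rows at 0 in both mTDE libraries. In these fits the mTDE pair alone gives the spread, which is 0 for those rows, and the lone pTDE library is assumed to vary alike. Calls from such fits are therefore no measure of stability. Without either of the mTDE libraries 0 rows were called in either direction, with the spread from the pTDE pair alone. With miR-21 left out and the added constant raised with the rescaling, to 1.40 CPM, 1 row was called higher (miR-455) and 8 lower. Over rows above 0 in all libraries, 1 was higher and 5 were lower without miR-21, against 0 and 4 with it.

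Leaving out miR-21 changed how far the replicates lay apart in opposite ways. Over 266 rows with at least 10 reads in both pTDE libraries, the median log2 difference of replicate 1 from replicate 2 went from -0.06 to 0.18, and the median absolute difference from 0.65 to 0.67. Over 239 such rows in mTDEs, the median difference went from -0.62 to -0.51 and the median absolute difference from 0.89 to 0.82. So the pTDE replicates were centred closer to each other with miR-21 in the total and the mTDE replicates without it.

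miR-21 was compared with further high rows by leaving out the 20 highest one more at a time. On the 306 rows outside those 20, the median log2 fold change was 0.01 with nothing left out and 0.18 without miR-21. It was 0.43 without miR-21 and both let-7a rows, which together held 57.8% and 50.7% of pTDE libraries and 42.8% and 37.1% of mTDE libraries. After that it stayed between 0.39 and 0.51, and it was 0.44 with all 20 left out. Each step is measured on a total already reduced by the rows before it, so the steps do not rank the rows. Calls went from 0 higher and 6 lower to 13 and 10 without miR-21, 18 and 11 without the let-7a rows too, and 28 and 12 without all 20. The added 1 CPM also weighs less against the rescaled rows at each step. With it raised to 1.40 CPM for the step without miR-21, 1 row was called higher and 8 lower. With 0.1 CPM added and miR-21 in the total, 28 rows were called higher and 11 lower.

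**Figure D4:**
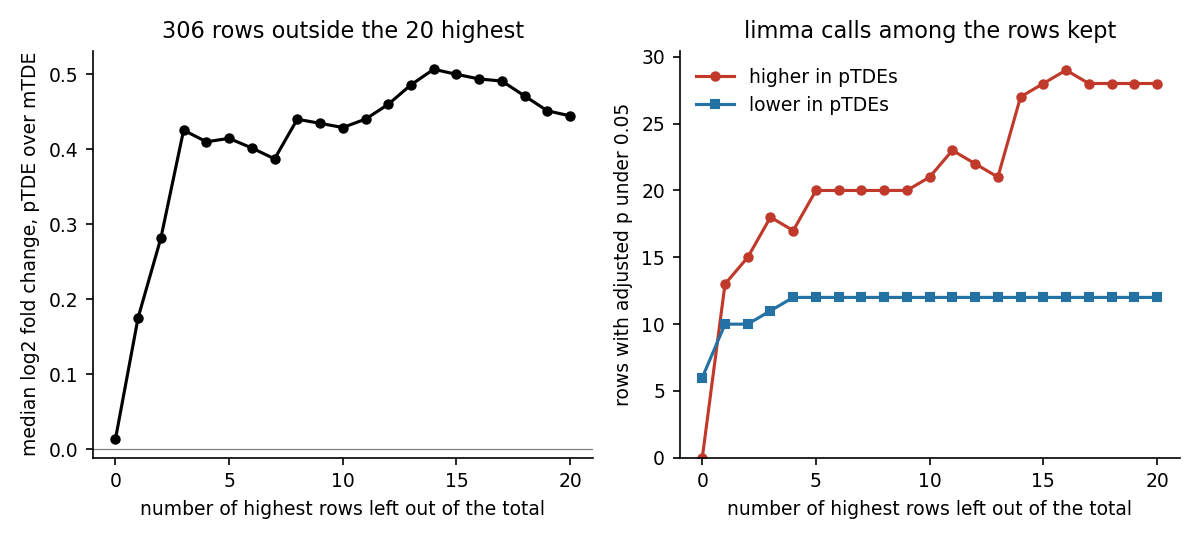
Median log2 fold change of pTDEs over mTDEs on the 306 rows outside the 20 highest (left), and the number of rows with an adjusted p under 0.05 among the rows kept (right, red higher and blue lower in pTDEs), against the number of highest rows left out of the total. The median climbs from 0.01 to 0.43 over the first 3 rows, miR-21 and the let-7a copies, and then stays between 0.39 and 0.51.

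Other miRNAs known as oncogenic, 21 miRNAs in 26 rows, gave 0 calls in either fit, against 1.84% of rows called in either direction with miR-21 in the total and 7.08% without it. Their median log2 fold change was -0.22 with miR-21 in the total and -0.08 without it, beside -0.03 and 0.13 for all other rows. miR-155, an oncogenic miRNA of immune and breast cancer cells, was the 1 row with an unadjusted p under 0.05 in each fit, where 19.6% and 20.6% of all rows had one. It was at 9027 and 14316 CPM in pTDEs and at 3708 and 5803 CPM in mTDEs, and its adjusted p was 0.20 and 0.13 in the 2 fits (limma, Benjamini-Hochberg). miR-21 alone was 3.07 and 1.54 times the sum of the 26 rows in pTDEs and 1.76 and 1.11 times that sum in mTDEs.

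Of 19 miRNAs often abundant in EVs, 16 were found under their listed name, in 22 rows, and 0 were called in either fit, where 1.84% and 7.08% of all rows were. Their sum was 401734 and 458449 CPM in pTDEs and 443784 and 374010 CPM in mTDEs. With copies counted once it was 247915 and 282163 CPM in pTDEs and 290585 and 236110 CPM in mTDEs, so miR-21 was 1.53, 0.941, 0.965 and 0.952 times that sum. miR-21 alone thus held more than these 16 miRNAs in pTDE replicate 1 and slightly less in the other libraries. miR-423, also on the list, has a row named miR-423a with 1219 and 1115 CPM in pTDEs and 2219 and 2333 CPM in mTDEs, which is not in these sums. Their median log2 fold change was -0.13 with miR-21 in the total and 0.01 without it. The 7 rows of miRNAs known, like miR-21, to be induced by inflammatory signals, miR-155 and miR-146a among them, likewise gave 0 calls against those same shares, with medians of -0.22 and -0.08. miR-21 was 8.56 and 5.16 times their sum in pTDEs and 7.75 and 3.24 times in mTDEs.

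The size of the lead depended on reading the deposited numbers as compressed values. As deposited, miR-21 had 9177, 8888, 8822 and 7576 of numbers that add up to about 1000000 in each library, a share of 0.918%, 0.889%, 0.882% and 0.758%. Taken as CPM, these would put miR-21 1.07-fold to 1.12-fold above the next row. Their low values are unevenly spaced. After conversion 100% of the values under 20 reads lay within 0.1 read of a whole number. This follows from how the worth of 1 read was chosen, as an even step that all values under 20 CPM fit within rounding. Such a step was found in each library. Conversion constants that kept this even spacing held the share of miR-21 at 37.8 to 37.9% in pTDE replicate 1, where it moved most.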

How the data were processed

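Small RNA of EVs from CHMp and CHMm was sequenced with 2 libraries per line, grouped by their labels. The study names both HiSeq and NovaSeq sequencers, and paired-end reads of 2 lengths. The sources used here do not say which library was run on which sequencer or at which length. Sequencer and read length may therefore differ between the lines or between replicates, and their effects could not be tested. Per the study's methods, the authors trimmed reads with cutadapt (4 bases removed, 22 to 30 nt kept), merged forward and reverse reads, predicted miRNAs with miRDeep2 on CanFam3.1, keeping scores from 4 up, and counted reads on known and predicted miRNAs with its quantifier; tool versions are not given in the sources used here. Effects of the length limits on miR-21 isoforms were not tested. Reads of both mates are not independent molecules. Intervals and detection limits take each recovered read as independent, so they may be too narrow even for counting error, and they cover no other error. The authors describe the deposited values as CPM, but here they are treated as a score, since they are whole numbers with unevenly spaced low values. Further deposited columns give the authors' own test of the lines as log2 fold changes and log2 CPM, a likelihood ratio score, p-values and false discovery rates, which were not used.

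CPM were recovered as 2^(value/s) - 1, where s is a constant of the library (495, 493, 487 and 426) that sets its total to 1000000. The worth of 1 read was the even step of the low values. limma 3.58.1 in R 4.3.3 (eBayes with trend) was fitted to log2(CPM + 1) over 326 rows that at least 1 line had above 0 in both its libraries, with Benjamini-Hochberg adjustment and a threshold of 0.05, once with miR-21 in the total and once over the 325 other rows without it. The study's own test works on counts, which the deposited values are not, so limma was used in its place. Prior degrees of freedom were 2.40 and 1.83. Conversion used Python 3.11.15 with numpy 2.4.6 and pandas 2.3.3, and conversion and fits were tested on simulated data. Rows of 1 miRNA number within 5% of each other were taken as copies.

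Named rows were miR-21, the 10 highest by mean CPM, rows known for its seed, the 5 most alike in pattern, and rows called in either fit. miR-155 and the list miRNAs miR-451, miR-144, miR-486, miR-122, miR-223, miR-146a and miR-423a were named after their values were seen. The members, lists and named rows were chosen with earlier results of these data known. Sequences came from the study's miRDeep2 candidates, matched by hand, and neighbouring genes from RefSeq, by name alone since its assembly differs from CanFam3.1. Alternatives covered the added constant, filters, copies, scaling, conversion, variance trend, voom, the replicate block and each library left out.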

Additional observations from a re-analysis of the deposited data

How the results depend on the processing

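miR-21 ranked first in all libraries, and its log2 fold change stayed positive and without a call in 12 other fits (0.14 to 0.58, limma adjusted p 0.52 to 0.74) and in the 4 fits without 1 library (0.08 to 0.59). Taking the deposited values as CPM gave mean shares of 0.903% in pTDEs and 0.820% in mTDEs and mean leads of 1.09-fold and 1.11-fold. Counting copies once gave a mean share of 30.8% in mTDEs. Medians of the other rows moved by less than their spread between replicates in each alternative, but their sign was not stable.

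Counts of calls were not stable, and other causes than those named were not tested. With miR-21 in the total, rows called higher (0 as reported) were 28 with 0.1 CPM added, 4 with known miRNAs only, 5 with median-ratio size factors, 39 with the deposited values as CPM, 4 without the trend, 5 by voom and 0 to 37 without 1 library. The highest counts without 1 library come from fits with 1 pTDE library, in which the mTDE pair alone gives the spread. The rows called higher there are at 0 in both mTDE libraries, so these counts are no measure of stability. Rows called lower (6) were 11 with 0.1 CPM added, 11 with the deposited values as CPM, 11 by voom and 0 to 4 without 1 library. With miR-21 left out, rows called higher (13) were 31 with 0.1 CPM added, 0 with 5 CPM added, 0 over all rows above 0 in any library, 0 over rows that averaged 10 CPM or more, 5 with median-ratio size factors, 39 with the deposited values as CPM, 1 without the trend, 6 by voom and 0 to 37 without 1 library. They were 18 with both let-7a rows left out too, and 20 and 21 with the 5 and the 10 highest rows left out. Rows called lower (10) were 5 with 5 CPM added, 5 over all rows above 0 in any library and 0 to 4 without 1 library. After the data were seen, raising the added constant with the rescaling gave 1 higher, and keeping rows above 0 in all libraries gave 1 higher and 5 lower. The ladder of the 20 highest rows was added then too.

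The labels do not say whether the shared replicate numbers pair the samples. Over the rows tested, the correlation of the replicate differences of the lines was 0.15. With 2 pairs this cannot settle whether libraries of the same replicate number share an effect. With the replicate block, 0 rows were higher and 7 lower with miR-21 in the total, 0 were higher and 1 lower without it, and the adjusted p of miR-21 in limma was 0.74.

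Depth limits the rows at 0, since 3 reads are worth 0.477 to 1.29 CPM.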
